A study of Mus musculus with 28 samples.

Results

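Receptor subunit genes for glutamate and GABA were followed in cKO and Ctrl mice, in RNA of the bulk cortex and in mRNA bound to tagged astrocyte ribosomes. The list held 29 of the 53342 genes of the count tables. It was chosen by name, from AMPA (Gria1 to Gria4), kainate (Grik1 to Grik5), NMDA (Grin1, Grin2a to Grin2d, Grin3a, Grin3b), delta (Grid1), GABA-A (Gabra2 to Gabra6, Gabrb1, Gabrb2, Gabrg1, Gabrg3, Gabrd) and GABA-B (Gabbr1, Gabbr2) receptor genes, and it does not hold every subunit of these families. All 29 symbols matched an Ensembl identifier (GRCm38) that every table holds.

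Mice called cKO had the mGFAP-Cre driver, in which a mouse GFAP promoter expresses Cre recombinase in astrocytes, together with loxP-flanked alleles of the sodium pump gene that the study deletes. The Ctrl mice were sex-matched littermates on the same C57BL/6J background with loxP/loxP or loxP/+ alleles, named without the driver. Bulk cortex was sequenced at postnatal day (P) 17 and at P24, with 4 cKO and 4 Ctrl libraries at each age, and each library came from 1 mouse. For TRAP-Seq (translating ribosome affinity purification), ribosomes tagged with EGFP-L10A under control of mGFAP-Cre were pulled down from P24 cortex with antibodies to GFP, giving the IP. A part of the lysate taken before the pull-down gave the Input, and 3 cKO and 3 Ctrl mice gave both fractions. Whether the TRAP Ctrl mice carried the driver is not given in the sources used here, although the tag depends on it.

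Libraries held 8855488 to 14575306 counts in bulk and 18433087 to 27242445 in TRAP-Seq, so that 3 counts, taken as the detection floor, were worth 0.206 to 0.339 CPM (counts scaled to a fixed library total) and 0.11 to 0.163 CPM, which covers counting error only. The deleted gene stood at 15.2 to 23.5 CPM in cKO IP and at 679 to 1140 CPM in Ctrl IP, and it was likewise lower in cKO in every other pair of groups. All 8 astrocyte markers checked, Gfap, Aldoc and Aqp4 among them, were higher in IP than in Input of both genotypes, with a median log2 fold change of 3.80 in Ctrl and 2.84 in cKO. Of 6 general neuronal markers 5 were lower in IP, but none was at 0. Their summed level was 2163 to 2669 CPM in Ctrl IP against 4204 to 4906 CPM in Ctrl Input, so the IP still contained neuronal transcripts. Replicate 1 of the cKO Input stood apart, with a median absolute log2 difference from the other libraries of its group of 0.449, against 0.14 to 0.286 in the other Input libraries.

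AMPA, kainate and NMDA receptors are ion channels opened by glutamate and carry most fast excitation in the cortex. NMDA receptors combine the obligatory GluN1 subunit (Grin1) with GluN2 or GluN3 subunits and need glycine or D-serine as a co-agonist. GABA-A receptors are chloride channels made of alpha, beta and gamma or delta subunits, while GABA-B receptors act through G proteins. Most of these genes are known for their work in neurons, but astrocytes also carry some of the subunits and respond to both transmitters.

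Grin2c, Gabrg1 and Grik3, the genes that the results on the astrocyte fraction turn on, are shown by the 250 bases before their start, because they differ in base composition and in short motifs. The sequences are from RefSeq (GRCm38.p6) and run from 5′ to 3′ on the gene's strand. Capitals mark matches on either strand to 4 motifs that were searched, an NFI site (TTGGCA), a STAT site (TTCNNNGAA), a TATA box (TATAAA) and a GC box (GGGCGG).
Grin2c, chr11:115267244-115267493, minus strand: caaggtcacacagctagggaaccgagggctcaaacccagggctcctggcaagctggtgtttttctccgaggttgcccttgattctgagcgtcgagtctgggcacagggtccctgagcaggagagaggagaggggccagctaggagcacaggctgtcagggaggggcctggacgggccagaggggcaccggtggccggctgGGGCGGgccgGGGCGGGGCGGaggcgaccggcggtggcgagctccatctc
Gabrg1, chr5:70842618-70842867, minus strand: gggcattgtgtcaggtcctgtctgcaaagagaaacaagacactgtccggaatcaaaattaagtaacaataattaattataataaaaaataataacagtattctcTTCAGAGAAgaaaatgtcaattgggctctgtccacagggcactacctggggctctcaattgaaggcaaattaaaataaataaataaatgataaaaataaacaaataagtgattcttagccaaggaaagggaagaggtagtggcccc
Grik3, chr4:125490446-125490695, plus strand: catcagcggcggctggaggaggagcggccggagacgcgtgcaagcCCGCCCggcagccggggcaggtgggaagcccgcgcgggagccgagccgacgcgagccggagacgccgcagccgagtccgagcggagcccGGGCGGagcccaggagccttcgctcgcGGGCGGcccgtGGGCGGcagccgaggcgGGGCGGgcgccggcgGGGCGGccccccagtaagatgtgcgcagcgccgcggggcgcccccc
The Grin2c promoter held 3 GC boxes, the last 2 of which share 1 base, and 68.8% G and C. The Grik3 promoter held 6 GC boxes and 82.0% G and C. The Gabrg1 promoter had 35.6% G and C, no GC box and 1 STAT match, 146 to 138 bases before the start. Of all 32851 mouse promoters of this length, 32.7% held a GC box, 7.02% the STAT letters, 12.4% the TATA letters and 12.3% the NFI letters, and the median content of G and C was 52.4%. Among the 25 promoters found for 21 of the 29 genes, 10 held a GC box, 4 the TATA letters, 2 the STAT letters and 2 the NFI letters. A match describes the letters and is not a sign of binding.

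Levels were ranked between genes only per kilobase of exon (CPM per kb), since the genes differ in length. The length counts every annotated exon of a gene, 6043 bases in Gria1 and 15548 in Gria2, so the order depends on it. In P24 bulk cortex of Ctrl mice, Gabbr1 (80.1 ± 1.9 CPM per kb, SD, n = 4) and Gria1 (78.2 ± 5.8) led, followed by Gabbr2 (65.8 ± 5.5), Grin1 (64.8 ± 4.5) and Grik5 (55.4 ± 3.1). Gabbr1 and Gria1 did not differ beyond their spread, nor did Gabbr2 and Grin1. The lowest were Gabrg1 (1.16 ± 0.11), Grin3b (0.421 ± 0.21) and Gabra6 (0.285 ± 0.30). Gabra6, an alpha subunit typical of cerebellar granule cells, had 0 to 19 counts per library in this group.

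The order was different in the astrocyte fraction. In the Ctrl IP, Gabbr1 again stood first (53.3 ± 7.3 CPM per kb, SD, n = 3), before Grik5 (18.4 ± 2.3) and Gabbr2 (12.9 ± 1.6), and Grin2c followed at rank 4 (11.1 ± 1.9), within the spread of Gabbr2. Gabrg1 stood at rank 9 (6.56 ± 0.77), among Gabrb1 (8.04 ± 0.57), Gabra4 (7.69 ± 0.55) and Gria2 (6.53 ± 0.34). In the Ctrl Input from the same mice, Grin2c was at rank 22 (2.08 CPM per kb) and Gabrg1 at rank 27 (0.453). Grin1, the obligatory NMDA receptor subunit, was at rank 3 in Input (29.6 ± 6.7) and at rank 14 in IP (4.03 ± 0.55).

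**Figure D1:**
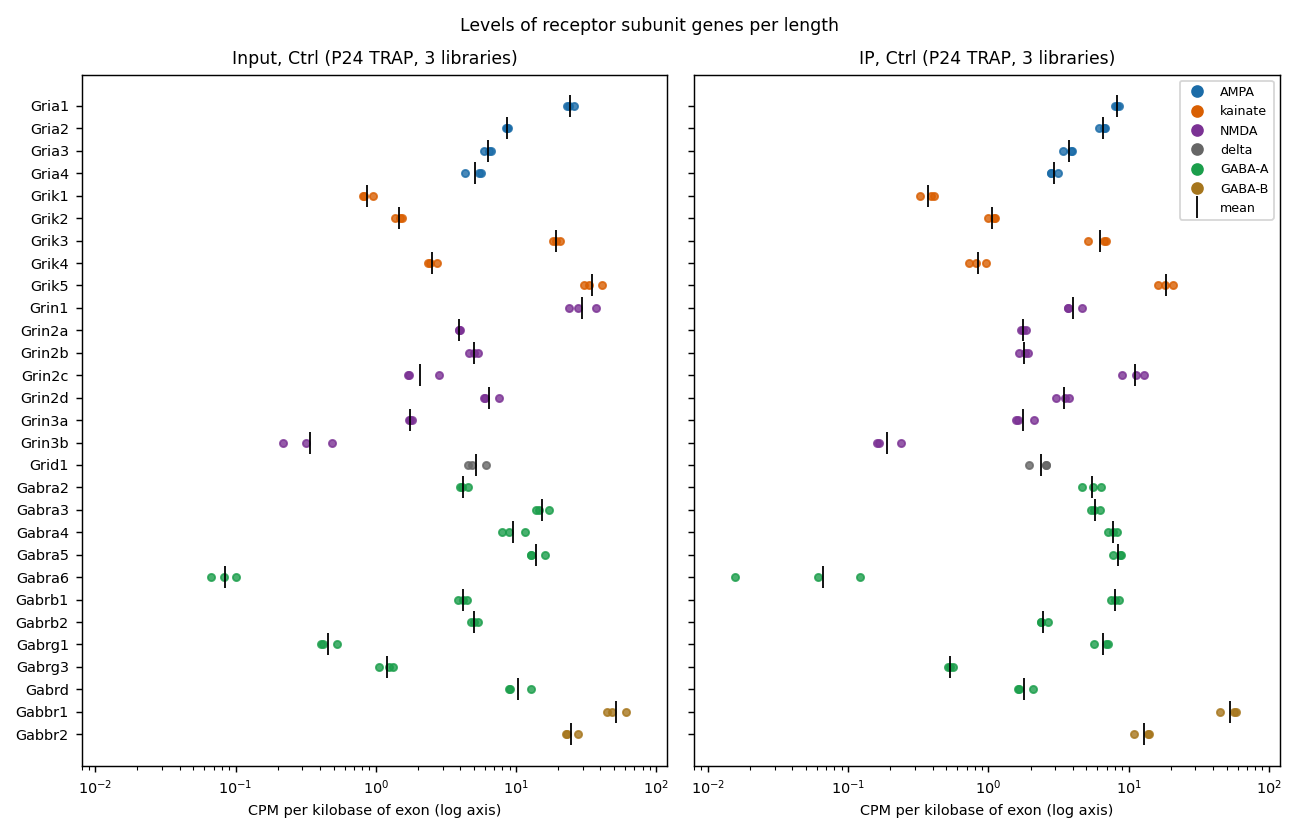
Levels of the 29 genes in CPM per kilobase of exon, on a log axis, in the 3 Input (left) and 3 IP (right) libraries of Ctrl mice; points are libraries, lines are means and colours are receptor families. Grin2c and Gabrg1 lie among the low genes in Input and among the upper genes in IP, whereas Grin1 moves the other way.

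The comparison of IP with Input asks which subunit transcripts are enriched on astrocyte ribosomes. In Ctrl mice, 4 of 28 genes tested were higher in IP (Gabrg1, Grin2c, Gabrb1 and Gabra2) and 21 were lower, while 35.3% and 35.7% of all 24385 genes tested were higher and lower. All 4 AMPA, all 5 kainate and the delta receptor gene were lower in IP. The median log2 fold change over the 28 genes was -0.93, against -0.03 over all genes. Calls are from the quasi-likelihood test of edgeR at a Benjamini-Hochberg adjusted p under 0.05. Gabra6 was not tested, having 1 to 8 counts in each TRAP library.

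Gabrg1 encodes the gamma1 subunit of GABA-A receptors. It had 44.7, 54.4 and 55.8 CPM in the Ctrl IP libraries and 3.20, 3.34 and 4.16 CPM in the Ctrl Input libraries. No IP library came near an Input library, and the fold change was 14.4 (log2 3.85 ± 0.15, SE, edgeR adjusted p = 1.84e-09). Grin2c encodes the GluN2C subunit of NMDA receptors. It had 45.5, 64.7 and 57.1 CPM in IP and 8.77, 14.1 and 8.57 CPM in Input. These groups were also fully apart, with a fold change of 5.30 (log2 2.41 ± 0.20, SE, edgeR adjusted p = 5.7e-07).

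Gabrb1, a beta subunit of GABA-A receptors, had 111.7, 118.8 and 103.1 CPM in IP and 53.6, 57.5 and 61.6 CPM in Input of Ctrl mice. It was 1.92-fold higher in IP, without overlap (log2 0.94 ± 0.10, SE, edgeR adjusted p = 3.25e-06). Gabra2, an alpha subunit, had 35.5, 48.6 and 42.5 CPM in IP and 30.5, 34.6 and 31.7 CPM in Input. The groups did not overlap, but the difference was small, 1.30-fold (log2 0.38 ± 0.13, edgeR adjusted p = 0.0185). It did not pass without replicate 1 of the Ctrl Input or when all TRAP libraries entered 1 fit (adjusted p = 0.112 in the latter). Gabbr1, the GABA-B receptor subunit that binds GABA, was at 348, 453 and 440 CPM in IP and 374, 474 and 347 CPM in Input. These ranges overlapped, and the log2 difference was 0.04, with a 95% interval of -0.24 to 0.32 (edgeR adjusted p = 0.812).

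At the other end, Grin1 had 35.9, 36.1 and 45.2 CPM in the Ctrl IP and 269, 359 and 233 CPM in the Ctrl Input, and it was 7.42-fold lower in IP (log2 -2.89 ± 0.17, edgeR adjusted p = 4.11e-08). Gabrd, the delta subunit found in GABA-A receptors outside synapses, had 4.74, 6.04 and 4.68 CPM in IP and 25.9, 37.1 and 25.7 CPM in Input and was 5.78-fold lower (log2 -2.53 ± 0.18). Both genes lay far outside the range of the other fraction.

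Among the kainate receptor genes, Grik3 had 46.3, 62.0 and 59.9 CPM in the Ctrl IP and 174, 184 and 165 CPM in the Ctrl Input, 3.13-fold lower in IP (log2 -1.65 ± 0.12, edgeR adjusted p = 2.54e-07). Grik4, a high-affinity kainate subunit, had 4.32, 4.90 and 5.77 CPM in IP and 14.6, 14.1 and 16.2 CPM in Input and was 3.01-fold lower. Neither gene had overlapping fractions. Gria1, the GluA1 subunit of AMPA receptors, had 48.3, 51.8 and 49.8 CPM in IP and 143, 157 and 140 CPM in Input and was 2.96-fold lower (log2 -1.57 ± 0.10, edgeR adjusted p = 5.16e-08).

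The other AMPA genes were depleted less, from log2 -0.42 in Gria2, which sets the calcium permeability of AMPA receptors, to -0.82 in Gria4. Grik2 (-0.47), Grik5 (-0.95) and Grik1 (-1.22) gave the rest of the kainate range. Among NMDA receptor genes, Grin2d (-0.92), Grin2a (-1.17) and Grin2b (-1.49) were lower along with Grin1, while Grin3a (-0.00) and Grin3b (-0.86, edgeR adjusted p = 0.0529, and 0.0394 with the mouse as a block) did not pass. Of the GABA-A receptor genes, Gabra5 (-0.73), Gabrb2 (-1.04), Gabrg3 (-1.18) and Gabra3 (-1.42) were lower with groups fully apart. Gabra4 (-0.31, edgeR adjusted p = 0.0466) had overlapping fractions, and its adjusted p reached 0.26 over the alternatives tried. Gabbr2, the partner of Gabbr1 in the GABA-B receptor, was lower by 0.94 on the log2 scale, and Grid1 by 1.14.

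**Figure D2:**
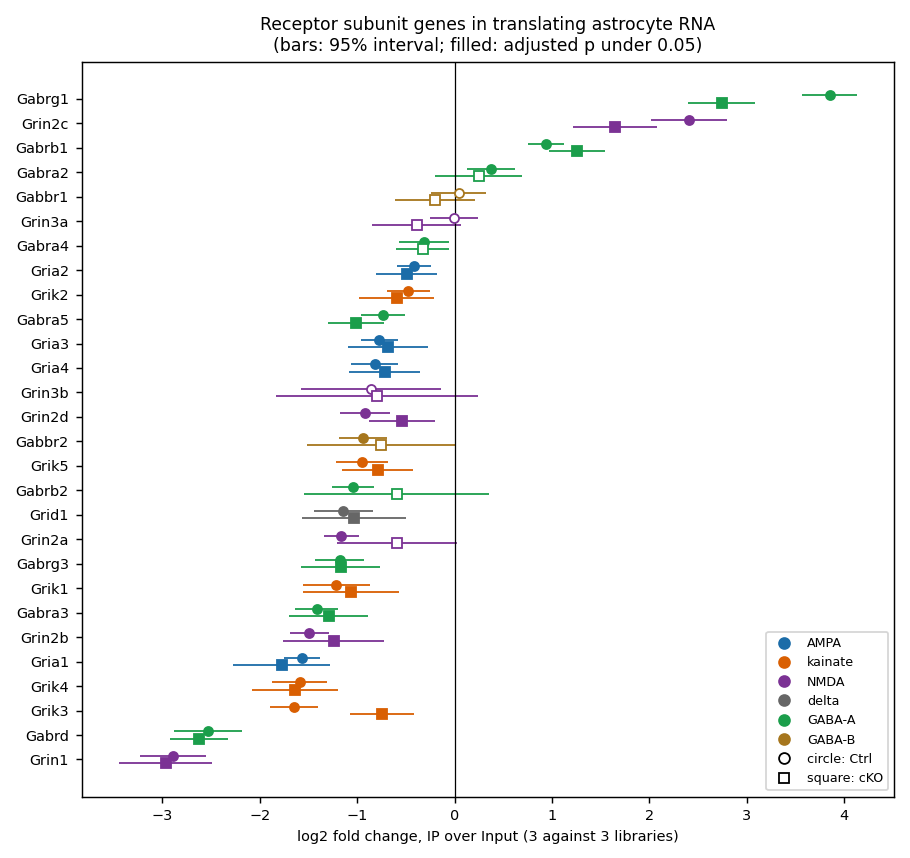
Log2 fold change of IP over Input for the 28 genes tested, in Ctrl (circles) and cKO (squares) mice, 3 against 3 libraries; bars are 95% intervals, and filled symbols passed an adjusted p under 0.05. Gabrg1, Grin2c and Gabrb1 lie right of 0 in both genotypes, and Grin1 and Gabrd lie farthest left.

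Of the 4 genes higher in the Ctrl IP, 3 lie in 1 group of neighbouring genes, which the choice of the list did not use. Gabrg1 (70751047 to 70842617, minus strand), Gabra2 (70957597 to 71095849, minus strand), Gabra4 (71569749 to 71658308, minus strand) and Gabrb1 (71658113 to 72149037, plus strand) lie together on chromosome 5 of GRCm38. Gabrg1, Gabra2 and Gabrb1 were higher in the Ctrl IP, whereas Gabra4 was lower (log2 -0.31, edgeR adjusted p = 0.0466). The Gabra4 call passed in only 2 of 7 alternative settings and in 1 of 6 fits that left out 1 library. The Gabra2 call passed in 6 of 7 and 5 of 6, but Gabra2 did not pass in cKO mice (log2 0.25, edgeR adjusted p = 0.381). Only Gabrg1 and Gabrb1 were called higher in both genotypes within this group. The 4th higher gene, Grin2c, lies on chromosome 11 (115249169 to 115267243, minus strand), far from the other genes of the list on that chromosome. The GABA-A receptor genes of the list that lie together elsewhere, Gabra5 with Gabrg3 on chromosome 7 and Gabra6 with Gabrb2 on chromosome 11, were lower or not tested.

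In cKO mice, 3 of 28 genes were higher in IP than in Input and 17 were lower, while 27.8% and 28.5% of all 24011 genes tested were. The higher genes were Gabrg1 (6.69-fold), Grin2c (3.13-fold) and Gabrb1 (2.39-fold), and the lowest were Grin1 (log2 -2.97), Gabrd (-2.63), Gria1 (-1.78) and Grik4 (-1.64). Grin2a, Grin3a, Grin3b, Gabra2, Gabra4, Gabrb2, Gabbr1 and Gabbr2 did not pass. Without replicate 1 of the cKO Input, which stood apart, 26 genes passed, among them Grin2a, Gabrb2 and Gabbr2. In that library, Gabrb2 was at 6.89 CPM against 31.5 and 30.1 in the other cKO Input libraries. Leaving out replicate 2 of the cKO Input or of the cKO IP left 16.

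Whether enrichment itself differed between genotypes was tested as an interaction of fraction and genotype, and none of the 28 genes passed (15 of all 25768 genes tested did, 0.0582%), with 3 at an unadjusted p under 0.05. These were Gabrg1 (log2 difference of enrichment -1.10 ± 0.23, edgeR adjusted p = 0.105), Grik3 (0.90 ± 0.21 and 0.148) and Grin2c (-0.75 ± 0.31). DESeq2 called Gabrg1 (adjusted p = 0.00293) and Grik3 (0.00903). Without replicate 1 of the cKO Input, edgeR also passed both, at adjusted p = 0.0336 and 0.0232. Without a low-count filter, edgeR passed Gabrg1 (adjusted p = 0.0172). No gene of the list passed with the mouse as a block, RLE factors, library size alone or at least 10 counts in every library. The other fits that left out 1 library called none either. The main fit did not pair the fractions of a mouse. The 8 astrocyte markers were also below 0 in this interaction, with a median of -0.82 (-1.11 to -0.61) and 0 of 8 past the threshold, and their summed level in Input was 1780 to 2350 CPM in cKO and 1113 to 1346 CPM in Ctrl. Their part in the Gabrg1, Grin2c and Grik3 values was not tested.

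The comparison of cKO with Ctrl IP asks which transcripts on astrocyte ribosomes differ when the pump gene is deleted. Of 28 genes, 2 rose (Grik3 and Gabrb1) and 4 fell (Gabrg1, Grin3a, Grin2c and Gria1), against 11.6% and 8.42% of all 23864 genes tested. The median log2 fold change was -0.04 over the 28 genes and -0.01 over all genes. When libraries were scaled by total count alone, the median of all genes moved by -0.11 and the calls over all genes went from 2772 higher and 2010 lower to 2002 and 3529, and the 6 genes kept their direction and passed. The Ctrl IP libraries serve here and in the comparison with Input, so the results are not independent.

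Grik3 encodes the GluK3 subunit of kainate receptors. It had 46.3, 62.0 and 59.9 CPM in Ctrl IP and 112, 140.8 and 107 CPM in cKO IP. Every cKO library was above every Ctrl library, and the level was 2.15-fold higher (log2 1.10, 95% interval 0.83 to 1.37, edgeR adjusted p = 0.000591). Grik3 passed in all 6 fits that left out 1 library. In the Input libraries of the same mice, Grik3 was at 174, 184 and 165 CPM in Ctrl and 223, 194 and 181 CPM in cKO, with overlapping groups (log2 0.20 ± 0.14, edgeR adjusted p = 0.812). Its level in the cKO IP remained below the Input (log2 -0.75, edgeR adjusted p = 0.00489).

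Gabrb1 had 111.7, 118.8 and 103.1 CPM in Ctrl IP and 154, 162 and 134.8 CPM in cKO IP. The groups did not overlap, and Gabrb1 was 1.36-fold higher in cKO (log2 0.44 ± 0.10, SE, edgeR adjusted p = 0.0115, and 0.0513 without replicate 3 of Ctrl). In P24 bulk cortex it had 203, 204, 190 and 183 CPM in Ctrl and 217, 230, 205 and 219 CPM in cKO. These groups too did not overlap, but the difference of 0.17 on the log2 scale did not pass (edgeR adjusted p = 0.185).

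Gabrg1, the gene most enriched in IP, had 44.7, 54.4 and 55.8 CPM in Ctrl IP and 29.9, 34.4 and 36.8 CPM in cKO IP. It was 1.52-fold lower in cKO, without overlap, and passed in all 6 fits that left out 1 library (log2 -0.61 ± 0.12, SE, edgeR adjusted p = 0.00567). In Input, Gabrg1 had 3.20, 3.34 and 4.16 CPM in Ctrl and 5.91, 4.59 and 4.51 CPM in cKO. There the cKO libraries were the higher ones, by 0.49 on the log2 scale, which did not pass (edgeR adjusted p = 0.812). In P24 bulk cortex its groups overlapped (log2 -0.13, edgeR adjusted p = 0.667).

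Grin2c had 45.5, 64.7 and 57.1 CPM in Ctrl IP and 30.6, 34.5 and 47.2 CPM in cKO IP, so that the highest cKO library lay above the lowest Ctrl library. It was 1.48-fold lower in cKO (log2 -0.56 ± 0.17, SE, edgeR adjusted p = 0.0383). This call was lost in 4 of the 6 fits that left out 1 library (Ctrl replicate 2 or 3, cKO replicate 1 or 2, with adjusted p = 0.0959 to 0.148) and with all TRAP libraries in 1 fit (0.129), while with the replicate number as a block it passed (0.00459).

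Grin3a, which encodes the GluN3A subunit known to lower calcium entry through NMDA receptors, had 20.0, 25.8 and 19.2 CPM in Ctrl IP and 14.0, 13.8 and 15.1 CPM in cKO IP. The groups did not overlap, and it was 1.51-fold lower in cKO (log2 -0.59 ± 0.13, SE, edgeR adjusted p = 0.0103, and 0.0743 with all TRAP libraries in 1 fit). Gria1 had 48.3, 51.8 and 49.8 CPM in Ctrl IP and 38.4, 40.5 and 38.5 CPM in cKO IP, 1.27-fold lower without overlap (log2 -0.34 ± 0.09, SE, edgeR adjusted p = 0.0202). The Gria1 call passed in 1 of the 6 fits that left out 1 library, the one without replicate 3 of cKO, and the others gave adjusted p = 0.0516 to 0.0816. With all TRAP libraries in 1 fit it was also lost (adjusted p = 0.285). Outside the threshold, Grin1 (log2 -0.35, edgeR adjusted p = 0.0626), Gabra5 (-0.26 and 0.105) and Grin2a (0.25 and 0.0904) also had groups that did not overlap. Groups of 3 libraries can be apart by chance, and the share of all genes with such groups is not given here. Grin1 passed with DESeq2 (adjusted p = 0.0412), without a low-count filter (0.0392), scaled by library size alone (0.0191), with the replicate block (0.0100) and without replicate 3 of cKO (0.0448), and had an adjusted p of 0.326 with all TRAP libraries in 1 fit. Gabra5 passed when scaled by library size alone (0.0355). The remaining 19 genes tested lay between -0.26 and 0.25 on the log2 scale, with overlapping groups.

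**Figure D3:**
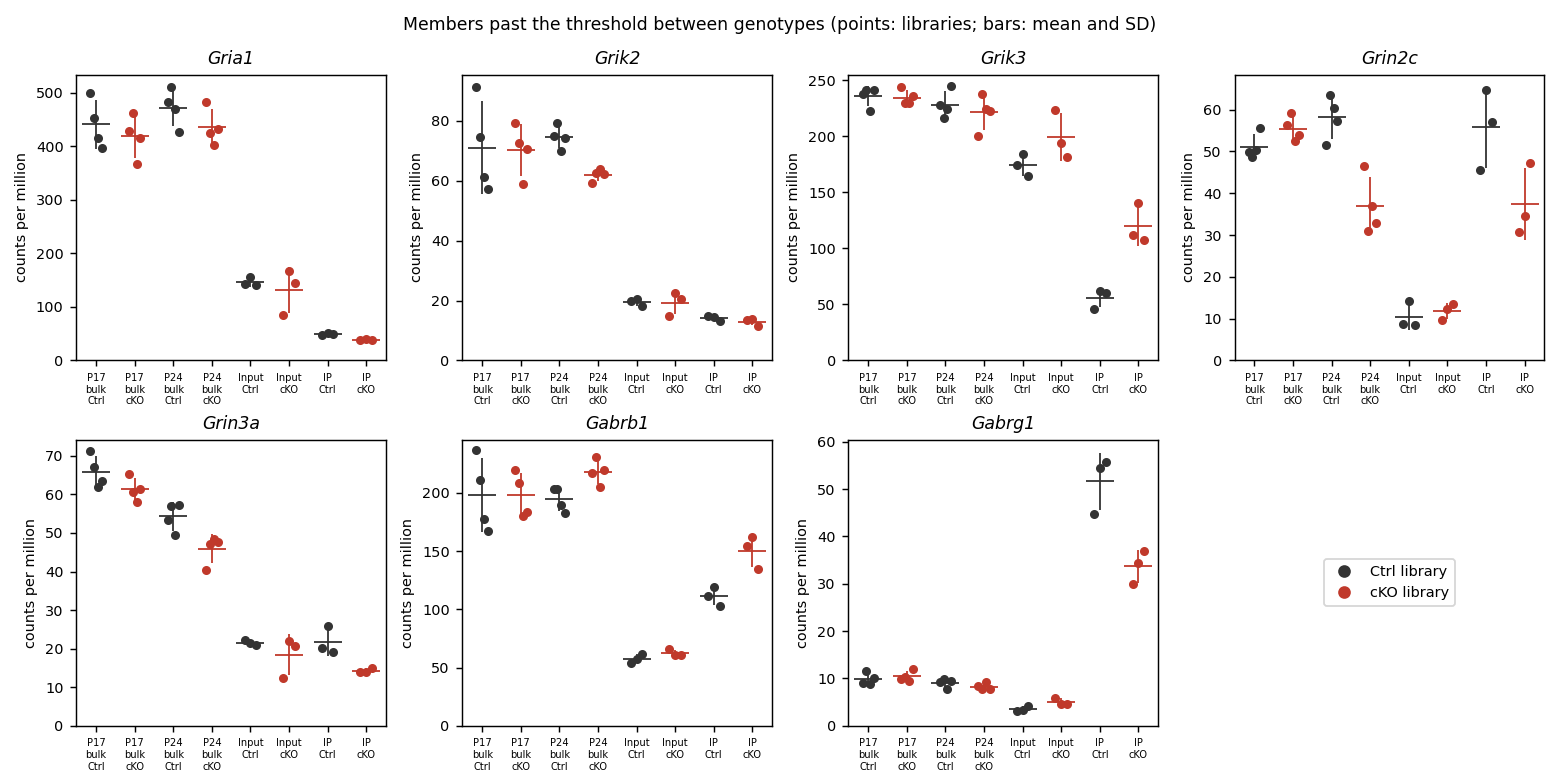
CPM in every library of the 7 genes past the threshold in a comparison of cKO with Ctrl; points are libraries (black, Ctrl; red, cKO), and bars are the mean and SD, with 4 libraries per bulk group and 3 per TRAP group. Bulk and TRAP values were scaled within their own experiment, so only neighbouring groups of the same experiment are compared; Grik3 and Gabrg1 are fully apart between genotypes in IP and Grin2c in P24 bulk.

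Genes that act with these receptors were read from 5 lists with 35 genes in all. In cKO against Ctrl IP, 1 of the 35 rose and 3 fell, against 11.6% and 8.42% of all genes tested, so the share that rose was below that over all genes and the share that fell was near it. Neto2, an auxiliary subunit of kainate receptors that modifies their gating, rose with Grik3, from 11.7 to 14.7 CPM in Ctrl IP to 30.9 to 44.9 CPM in cKO IP (log2 1.45 ± 0.15, SE, edgeR adjusted p = 0.000187). In Ctrl mice Neto2 was depleted in IP against Input (log2 -1.05 ± 0.12), as Grik3 was. The genes that fell were Shisa9 (log2 -0.45), an AMPA receptor auxiliary subunit, Dlg3 (-0.39), a scaffold of glutamate receptors, and Lhfpl4 (-0.44), which anchors GABA-A receptors at synapses. Against Input, 31 of the 35 were lower in the Ctrl IP (median log2 -1.23, while 35.7% of all genes tested were lower) and 1 was higher, Grm3, the metabotropic receptor mGluR3 (2.37 ± 0.18). In the cKO IP 27 were lower and Grm3 alone was higher (2.21).

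Markers of the cell types that the IP could hold were checked in the same comparison. The summed level of 8 astrocyte markers was 12371 to 16289 CPM in Ctrl IP and 12063 to 16574 CPM in cKO IP, with 1 of the 8 higher and 2 lower. Of 6 inhibitory neuron markers 1 was higher (summed 163 to 207 CPM in Ctrl and 169 to 177 CPM in cKO), and of 6 general neuronal markers 1 was lower (2163 to 2669 CPM and 2260 to 2349 CPM). Of 3 markers of oligodendrocyte precursors, cells that also carry glutamate receptors, 1 was higher (10.6 to 15.8 CPM and 13.5 to 23.1 CPM). None of 3 excitatory neuron markers passed. Slc17a7 (log2 -0.30, edgeR adjusted p = 0.0757) and Neurod6 (-0.28 and 0.141) lay below 0, and 1 marker is not reported here. None of 5 microglial, 3 endothelial, 4 oligodendrocyte and 4 striatal markers passed, and 1 of 3 cerebellar markers tested was lower. The part of these cells in the 6 calls was not tested.

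In Input, none of 28 genes passed between cKO and Ctrl (26 of all 23828 genes did, 0.109%), and DESeq2 called none either. One gene, Gabrg1, had an unadjusted p under 0.05. The median over the 28 genes was -0.03, and Gabrb2 had the largest difference (log2 -0.49 ± 0.45), with the low value of 6.89 CPM in the library that stood apart.

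In bulk cortex at P24, none of 29 genes rose in cKO and 2 fell, Grin2c and Grik2, against 0.462% of all 22495 genes tested that fell. The median log2 fold change was -0.10 over the 29 genes and 0.00 over all genes, and 22 of the 29 were below 0. In bulk tissue, fewer cells of a type and less RNA per cell cannot be told apart. Grin2c had 51.4, 63.4, 60.4 and 57.3 CPM in Ctrl and 46.6, 30.9, 37.0 and 33.0 CPM in cKO. The highest cKO library lay below the lowest Ctrl library, and Grin2c was 1.57-fold lower (log2 -0.65, 95% interval -0.87 to -0.43, edgeR adjusted p = 0.0130). It passed in 7 of the 8 fits that left out 1 library and missed in the fit without replicate 4 of cKO (adjusted p = 0.0514). In the TRAP Input, also from P24 cortex, Grin2c was at 8.57 to 14.1 CPM in Ctrl and 9.64 to 13.4 CPM in cKO. Those groups overlapped, and the cKO libraries were not lower there.

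Grik2, the GluK2 subunit of kainate receptors, had 75.0, 79.2, 70.0 and 74.3 CPM in Ctrl and 59.3, 62.6, 64.0 and 62.3 CPM in cKO. The groups did not overlap, and Grik2 was 1.20-fold lower (log2 -0.26 ± 0.05, SE, edgeR adjusted p = 0.0265). It passed only without Ctrl replicate 3 or cKO replicate 1 among the 8 fits that left out 1 library (adjusted p = 0.0572 to 0.102 in the others), and it was lost with the replicate number as a block (0.0516) and with all bulk libraries in 1 fit (0.318). Grik1 (log2 -0.39, edgeR adjusted p = 0.0820), Gria4 (-0.27 and 0.0552) and Gabrg3 (-0.27 and 0.0599) had groups fully apart but missed the threshold, and DESeq2 called these 3 as well. Grin3a (log2 -0.24, edgeR adjusted p = 0.148), at 49.4 to 57.3 CPM in Ctrl and 40.3 to 48.5 CPM in cKO, and Grin2d (-0.10 and 0.432) were also fully apart and did not pass. The share of all genes with groups fully apart is not given here, so the separation alone is not a result. None of the 35 genes of the receptor-associated lists passed.

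Among markers in P24 bulk, 3 of 8 astrocyte markers rose, Gfap among them, and 2 fell, while 0 of 6 general and 0 of 6 inhibitory neuron markers passed. The summed inhibitory markers were at 566 to 752 CPM in Ctrl and 494 to 600 CPM in cKO. Of 4 striatal markers, none passed, but their median log2 fold change was -0.65, with sums of 100, 114, 157 and 200 CPM in Ctrl and 35.0, 147, 130 and 55.7 CPM in cKO. At P17 the same sums overlapped widely, at 44.6 to 177 CPM in Ctrl and 50.7 to 170 CPM in cKO. The part of dissection or of inhibitory neurons in the Grik1, Grik2, Gria4, Gabrg3, Grin3a and Grin2d values was not tested.

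At P17, none of 28 genes passed between cKO and Ctrl (20 of all 21201 genes did, 0.0943%), and DESeq2 also called none, with 1 gene, Gabra3, at an unadjusted p under 0.05 (log2 -0.13). The medians of the 28 genes and of all genes were both -0.00, and every gene had overlapping groups. Grin2c had 49.8, 48.7, 50.4 and 55.5 CPM in Ctrl and 56.2, 59.2, 52.4 and 54.0 CPM in cKO at this age. The cKO libraries were thus not lower (log2 0.12, 95% interval -0.00 to 0.24, edgeR adjusted p = 1).

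**Figure D4:**
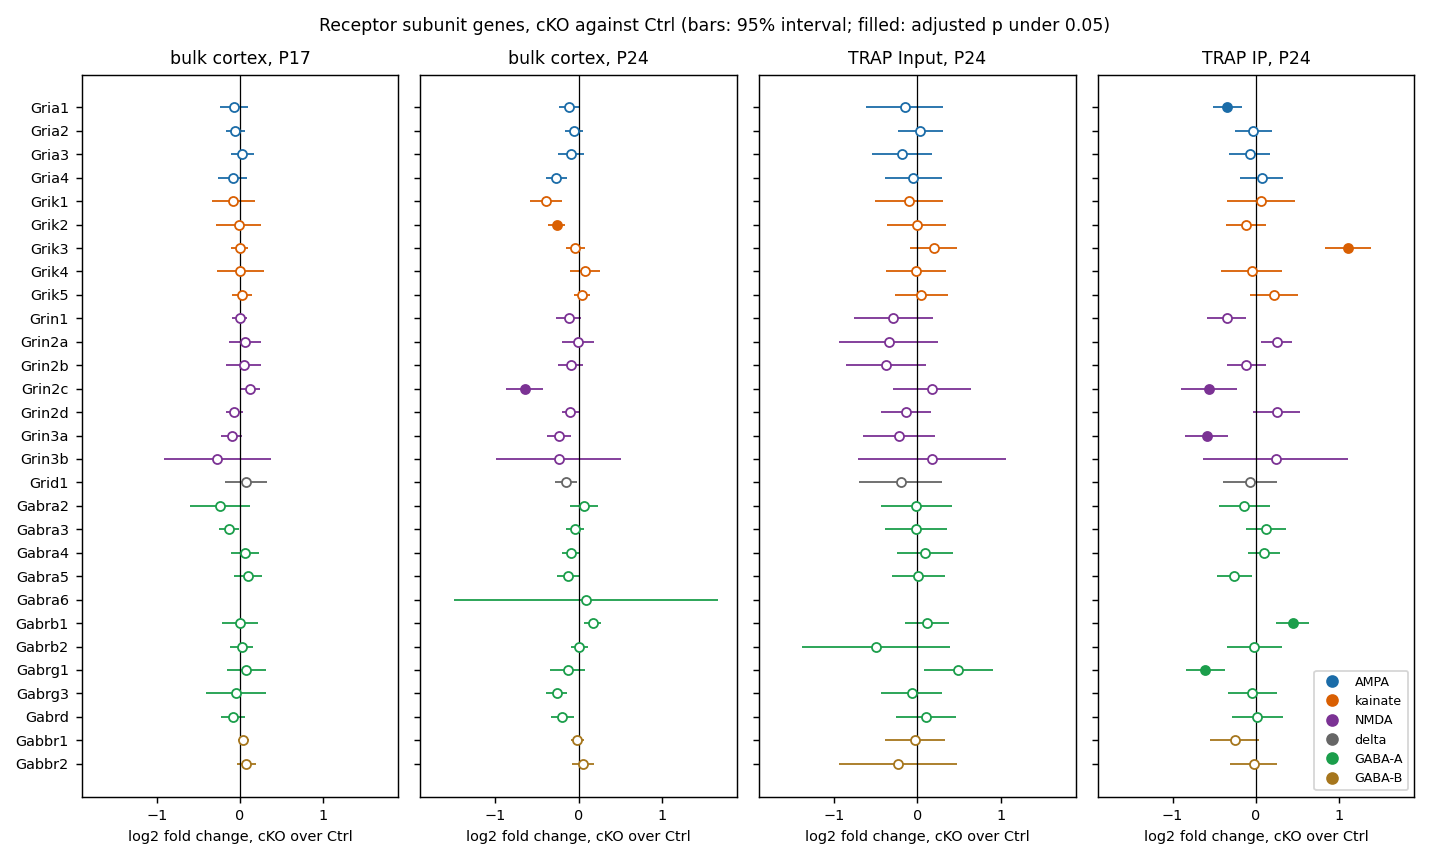
Log2 fold change of cKO over Ctrl for each gene in bulk cortex at P17 and P24 (4 against 4 libraries) and in Input and IP at P24 (3 against 3); bars are 95% intervals, filled symbols passed an adjusted p under 0.05, and colours are receptor families. Grin2c is the gene with a filled symbol in both P24 bulk and IP, and none is filled at P17 or in Input.

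The change of the genotype difference from P17 to P24 was tested as an interaction of age and genotype. None of 29 genes passed in edgeR (11 of all 23395 genes did, 0.047%), and 1 gene, Grin2c, had an unadjusted p under 0.05. The difference between cKO and Ctrl in Grin2c moved by -0.77 ± 0.14 on the log2 scale (edgeR adjusted p = 0.0580). DESeq2 called this change (adjusted p = 0.000195), as did edgeR without a filter on low counts (0.000944) or with at least 10 counts in every library (0.0404). It did not pass with RLE factors, scaled by library size alone or with the replicate block. Of the 16 fits that left out 1 library, it passed only without replicate 1 of P24 Ctrl or of P24 cKO. The 2 ages were separate sets of mice and separate count tables.

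Between P17 and P24 in Ctrl mice, 3 of 29 genes rose and 1 fell, while 9.45% and 10.1% of all 22215 genes did, and the median of the 29 genes was 0.00. Age and sequencing of the 2 bulk sets cannot be told apart. Gabra3, an alpha subunit of GABA-A receptors, was at 62.6, 64.9, 66.0 and 65.4 CPM at P17 and at 85.0, 78.9, 84.5 and 79.2 CPM at P24. The ages did not overlap (log2 0.34 ± 0.05, SE, edgeR adjusted p = 0.000731). Grin3a was at 71.2, 67.0, 61.9 and 63.4 CPM at P17 and at 53.3, 57.1, 49.4 and 57.3 CPM at P24, again without overlap (log2 -0.28 ± 0.07, edgeR adjusted p = 0.0108). Gabbr1 rose from 525 to 546 CPM to 605 to 641 CPM (log2 0.21 ± 0.04, edgeR adjusted p = 0.00392).

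Gria3 rose by 0.27 ± 0.07 on the log2 scale (edgeR adjusted p = 0.0168), with ranges that overlapped because replicate 1 at P17 (243.6 CPM) lay above the lowest library at P24 (236.6 CPM). Gabra6 had 0.428, 0, 2.20 and 1.02 CPM at P17 and 1.41, 0.149, 1.28 and 0 CPM at P24, so its log2 difference of -0.27 ± 0.89 rests on 0 to 20 counts per library and was not called. Of the 35 receptor-associated genes, 8 rose with age, led by Cacng7 (log2 0.51) and Shank1 (0.49), and 1 fell, Lhfpl4 (-0.21). Scaled by total count alone, calls over all genes went from 2100 higher and 2252 lower to 1618 and 2659.

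The make-up of receptor groups within a library was described by the share of 1 subunit in the summed CPM per kb of its group, which library scaling does not touch. These shares were not tested, they depend on the exon lengths used, and small groups can be apart by chance. Grin2c made up 61.0% of Grin2a to Grin2d in the Ctrl IP (57.8 to 63.1%) and 48.4% in the cKO IP (44.7 to 55.7%), without overlap. In Input the share was 11.8% in Ctrl and 15.6% in cKO. In P24 bulk cortex it was 16.7% in Ctrl (15.5 to 18.3%) and 11.7% in cKO (9.96 to 13.9%), also without overlap. At P17 it was 15.3% in Ctrl and 15.98% in cKO.

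Gabrg1 made up 92.4% of Gabrg1 and Gabrg3 in the Ctrl IP (91.5 to 93.2%) and 89.1% in the cKO IP (87.1 to 91.5%), against 27.3% in the Ctrl Input and 20.4% in P24 bulk of Ctrl. Gria2 made up 30.4% of Gria1 to Gria4 in the Ctrl IP and 32.7% in the cKO IP, against 19.5% in the Ctrl Input. Grin2a, the subunit that gains on Grin2b as the cortex matures, made up 49.8% of the sum of Grin2a and Grin2b in the Ctrl IP (48.5 to 51.6%) and 56.2% in the cKO IP (53.4 to 59.2%), without overlap. Neither gene passed between genotypes in IP. In Input that share was 44.2% in Ctrl and 43.9% in cKO, and in bulk it was between 35.9% and 38.4% on average in all 4 groups.

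**Figure D5:**
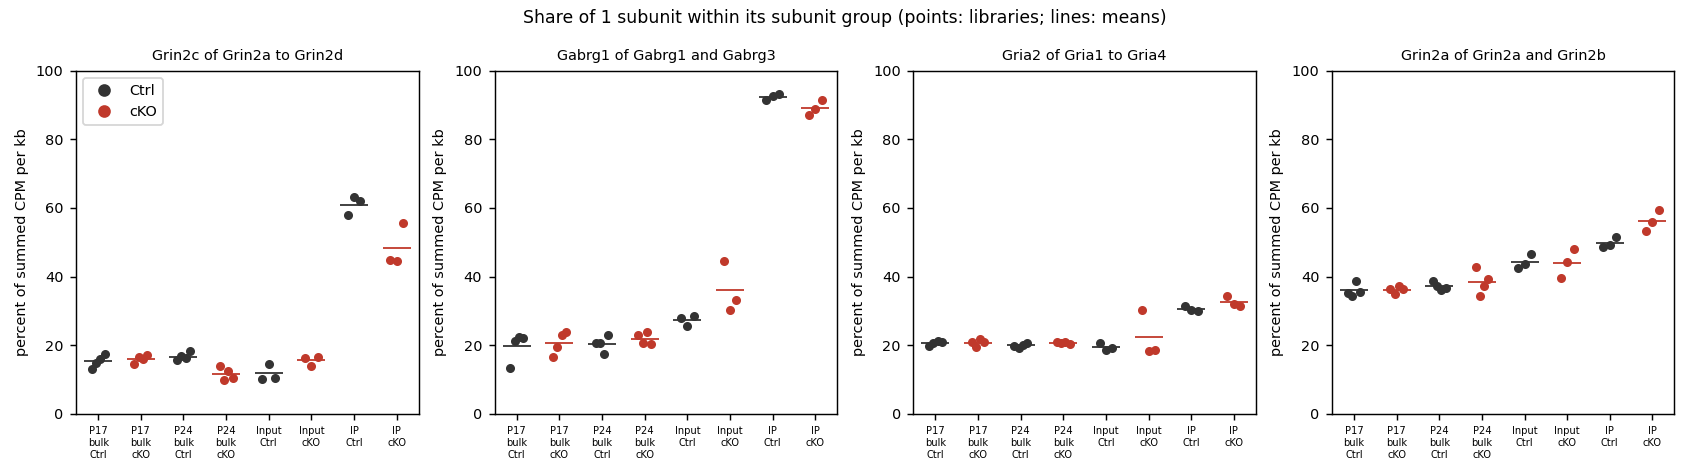
Share of 1 subunit gene in the summed CPM per kilobase of its subunit group, in percent, for each library (points; black, Ctrl; red, cKO) with group means as lines. The Grin2c and Gabrg1 shares are higher in IP than in bulk or Input, with Grin2c at 61.0% in the Ctrl IP and 48.4% in the cKO IP, and the Grin2c share is lower in cKO than in Ctrl in IP and in P24 bulk.

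Some values are uncertain because the strand setting of the counting is not given in the sources used here and exons overlap with genes on the other strand. Grin3b shares 32.1% of its exon length with Tmem259 and was at 0.298 to 2.09 CPM, from 5 to 47 counts per library. Grin1 shares 13.5% with Grin1os, which was itself at 317 to 400 CPM in bulk, Grin2d 9.66% with Gm45441 and Gabra5 4.98% with Gm9962. Grin2c, Gabrg1 and Grik3 share under 2% of their exons with other genes.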

How the data were processed

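Bulk RNA-Seq (16 libraries) and TRAP-Seq (12 libraries) were analysed from the 3 deposited tables of gene counts. The authors mapped reads with STAR to mm10 in Galaxy and analysed them with edgeR, and deposited whole-number counts per Ensembl gene without normalization. How reads were assigned to genes, with which strand setting and annotation, is not given in the sources used here. Each table held 53342 identifiers, of which 53237 matched a symbol in GENCODE M21 (GRCm38), and exon lengths are from that annotation. Groups are those of the labels.

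Counts were tested per comparison with the quasi-likelihood test of edgeR 4.0.16 (limma 3.58.1, R 4.3.3) on TMM factors, after filterByExpr (minimum count 10, minimum total 15, 70% of the smallest group). p-values were adjusted over all genes tested (Benjamini-Hochberg, threshold 0.05), and SEs were taken from the F statistic. CPM used TMM factors over all libraries of an experiment. Interactions were fitted over all groups of an experiment, and the P17 and P24 tables were joined by identifier for tests of age. The scripts were tested on simulated counts. DESeq2 1.42.0 served as an alternative, beside other scaling factors, other filters, a replicate block, 1 fit over all libraries of an experiment, and leaving out each library.

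The genes and lists were chosen with earlier results of these data known. All 29 genes are accounted for. Values in every library are given for genes past the threshold between genotypes, the 5 highest and 5 lowest in IP against Input of Ctrl, and the 3 with the largest difference between ages, and at most 2 called genes per associated list and comparison are named. Values of other genes and libraries that were singled out were chosen after they were seen. Of the excitatory neuron markers, 1 is not reported here, nor is the sum that holds it.

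IP and Input of the same number came from the same mouse. At P17 the replicate numbers pair the libraries, since every same-numbered pair of libraries had a correlation of deviations over the threshold of 0.1 (r = 0.167 to 0.38 across genes), whereas some pairs were under it in P24 bulk (0.0286 to 0.218), IP (0.0355 to 0.116) or Input (-0.0342 to 0.102). Each replicate is a mouse. All 36 replicate pairs differed beyond counting noise (chi-square per degree of freedom 2.59 to 78.6).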

Additional observations from a re-analysis of the deposited data

Results flagged for a closer look

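In 6 of 116 sets of 4 bulk libraries (29 genes in 4 groups), the highest or lowest library stood far from the other 3, where chance gives about 1 in 20, or 5.8 sets. At P17, replicate 1 of Ctrl was the highest for Gria3 (243.6 CPM, against 207.6 to 210.7 in the others) and for Gria4 (118 CPM, against 97.96 to 101.2), and replicate 1 of cKO was the highest for Gabrb2 (122.3 CPM, against 106.3 to 108.7). At P24, replicate 1 of cKO was the highest for Gria2 (511.3 CPM, against 437.9 to 449.3) and the lowest for Grin3a (40.32 CPM, against 47.18 to 48.49). Gabra6 was at 0 CPM in replicate 4 of cKO at P17, against 1.071 to 1.079 CPM in the others, at or below 20 counts per library. Of 57 interactions with fraction or age examined for these genes, 0 passed in edgeR.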

How the results depend on the processing

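No value that passed the threshold, in the reported fit or under an alternative, reversed its direction, while values near 0 that passed in neither could change sign. Over the 29 genes of the list, in all comparisons and alternatives, 55 values no longer passed and 45 came to pass. Another 41 that passed in neither moved by more than 1 SE, and the other 3737 did none of these. In P24 bulk the count of genes called (2) became 5 with DESeq2 and 5 without a low-count filter (Gria4, Grik1 and Gabrg3 added both times), 1 with all bulk libraries in 1 fit (Grin2c), and 0 to 5 when 1 library was left out (0 without cKO replicate 4, 1 without Ctrl replicate 1 or 2 or cKO replicate 2 or 3, and 5 without cKO replicate 1). In IP the 6 became 3 with all TRAP libraries in 1 fit (Grik3, Gabrb1 and Gabrg1 left), and 3 to 7 when 1 library was left out (3 without Ctrl replicate 3, 7 without cKO replicate 3). The interaction of fraction and genotype (0) gave 2 with DESeq2, 1 without a filter (Gabrg1) and 0 to 2 when 1 library was left out (2 without Input cKO replicate 1). The interaction of age and genotype (0) gave 1 with DESeq2, 1 without a filter, 1 with at least 10 counts in every library (Grin2c each time) and 0 to 1 when 1 library was left out (1 without replicate 1 of P24 Ctrl or of P24 cKO). IP against Input in cKO (20) ranged from 16 to 26, IP against Input in Ctrl (25) from 24 to 25, and age in Ctrl (4) from 3 to 6 (3 without P17 Ctrl replicate 2 or 4, 6 without P17 Ctrl replicate 1), when 1 library was left out. The causes were not tested. With the replicate block, P24 bulk kept 2 genes, Grin2c and, in place of Grik2, Grik1 (adjusted p = 0.0347); IP gave 8 (Grin1 and Gabbr1 added), IP against Input in Ctrl 26, age in Ctrl 5 (Gria4 added), and P17, Input and both interactions 0. All 8 P17 libraries and all 6 IP libraries correlated best with their own number.

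Calls over all genes moved by more than 1.5 times in P24 bulk (388) with DESeq2 (604) and without a filter (618). In P17 bulk (20) DESeq2 gave 41, no filter 55 and the block 109. In IP (4782) 1 fit over all libraries gave 1684. In Input (26) DESeq2 gave 127, no filter 112, at least 10 counts in every library 15, the block 8 and 1 fit 127. The interaction of fraction (15; 10 higher, 5 lower) gave 10 with RLE factors (5 and 5), 287 with DESeq2, 189 without a filter, 6 with the block and 5 higher against 7 lower by library size alone, and that of age (11) gave 54 with DESeq2, 62 without a filter and 26 with the block. Depth limits Gabra6 and Grin3b.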
